A study of Drosophila melanogaster with 6 samples.

Results

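Of the 3363 Cyclin G peaks mapped in wing imaginal discs, 118 lay inside introns of autosomal genes and away from every transcript start. Most of the 118 lay in sequence that recurs in the genome, so their place is that given by the list. They were chosen by position alone: a peak had to be on arm 2L, 2R, 3L, 3R or 4, overlap an annotated gene, cover no transcript start, transcript end or exon base, and have its midpoint outside every annotated transposable element. They made up 3.51% of the list (95% Wilson interval 2.94 to 4.19%), 7.96% of the 1483 peaks of these arms (6.69 to 9.45%) and 34.3% of the 344 peaks there that were intronic whether or not an element was annotated (29.5 to 39.5%). The remaining 226 intronic peaks had their midpoint in an annotated element and were not counted among the 118. The data were 1 list of peaks from chromatin immunoprecipitation and sequencing (ChIP-seq) of wing discs from female larvae of the third instar raised at 25 °C, the epithelial sacs from which the adult wing forms. The ChIP discs carried UAS-Myc-CycGΔP under da-Gal4 in 1 copy each, so that a Cyclin G with a Myc tag and without its PEST-rich domain was made in all tissues beside the fly's own protein, and anti-Myc antibody precipitated the tagged form. There were 2 ChIP replicates of 600 discs and 2 input libraries of their chromatin, and 1 mock ChIP and 1 mock input from da-Gal4/+ discs, which shared the driver and lacked the tagged protein. The list held positions on the dm6 build that the authors had joined from both ChIP replicates, with no height, score or count, so the values carry no replicate error, the depth behind a peak is unknown, and the background in the mock discs was not analysed here.

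Cyclin G is an unusual cyclin that binds chromatin and interacts with Enhancers of Trithorax and Polycomb, and an intron can hold enhancers, insulators or the start of a shorter transcript of the same gene. Introns of Drosophila genes differ strongly with their place on the chromosome. In euchromatin, the gene-rich bulk of the arms, most introns are short and of single-copy sequence. In the pericentromere, the heterochromatin beside the centromere, a gene can have introns of great length that are largely built of old and new transposable elements, and such genes are nevertheless transcribed. Below, a 200 kb bin of an arm was called pericentromeric when 30% or more of its bases were repeat-masked and euchromatic otherwise, and the small, largely heterochromatic chromosome 4 was kept apart. Words of 75 bp, the read length of the ChIP libraries, were counted over the genome on both strands, and peaks with 90% or more of their words occurring once are called unique. The words of a peak are those that start in it, so the last ones run past its right edge, which weighs most in narrow peaks.

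The sequences of 6 intronic peaks show the kinds of sequence found, read 5′ to 3′ on the forward strand of the RefSeq copy of dm6. The peaks in Tet (120 bp at chr3L:2851986-2852105), Eip74EF (chr3L:17597067-17597186) and Asator (chr4:486721-486840) are unique and are shown because each holds AGNTGGCGC, in capitals, which contains the core of the binding sequence known for the fly insulator protein CTCF. The peak in COX7AL2 (chr2L:2193508-2193627) is unique and holds TGGCGC on either strand, in capitals, without the longer form.
Tet: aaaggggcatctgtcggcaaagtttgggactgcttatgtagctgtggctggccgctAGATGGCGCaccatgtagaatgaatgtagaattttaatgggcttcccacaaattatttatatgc
Eip74EF: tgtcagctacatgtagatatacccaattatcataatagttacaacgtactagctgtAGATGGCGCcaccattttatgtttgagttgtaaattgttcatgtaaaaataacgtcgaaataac
Asator: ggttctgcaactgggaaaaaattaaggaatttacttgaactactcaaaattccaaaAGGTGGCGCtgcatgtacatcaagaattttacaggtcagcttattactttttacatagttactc
COX7AL2: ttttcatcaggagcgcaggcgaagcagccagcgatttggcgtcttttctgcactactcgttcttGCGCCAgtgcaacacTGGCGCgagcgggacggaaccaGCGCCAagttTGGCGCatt
The other sequences stand for repeats. The whole 113 bp peak in Pzl (chr3R:3234794-3234906) had 5 exact copies on the autosomal arms, all inside the Pzl gene, of which 3 lay in intronic peaks. The centre of the peak in Mitf (chr4:1200124-1200243) is an AT-rich tandem repeat, with exact copies of ATAAATT in capitals.
Pzl: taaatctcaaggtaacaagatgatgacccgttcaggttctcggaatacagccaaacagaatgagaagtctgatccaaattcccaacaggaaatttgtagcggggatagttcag
Mitf: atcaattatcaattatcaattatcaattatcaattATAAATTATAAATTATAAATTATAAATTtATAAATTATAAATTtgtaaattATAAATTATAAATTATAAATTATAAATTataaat

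The 118 peaks were far from evenly spread over the autosomes. Of them 14 were euchromatic, 102 pericentromeric and 2 on chromosome 4. This split depends on leaving out annotated elements: of all 344 intronic peaks, 190 were euchromatic, 148 pericentromeric and 6 on chromosome 4, so that 43.8% of the 338 outside chromosome 4 were pericentromeric (38.6 to 49.1%). By arm, 1 lay on 2L, 29 on 2R, 26 on 3L, 60 on 3R and 2 on chromosome 4. In intron-only sequence outside annotated elements, the density was 0.379 peaks per Mb in euchromatin (exact Poisson interval 0.207 to 0.635, 36.97 Mb), 18.4 in the pericentromere (14.99 to 22.3, 5.547 Mb) and 4.65 on chromosome 4 (0.563 to 16.8, 0.430 Mb). The pericentromeric density was thus 48.6 times that of euchromatin (exact interval 27.7 to 92.0), and neighbouring peaks are not independent, so these intervals cover counting error only and no test was made. Of the 14 peaks called euchromatic, 6 lay in DIP-lambda, in a bin with 28.4% masked bases that has pericentromeric bins on either side. With an unbroken pericentromere from the centromeric end of each arm, an alternative added after the values were seen, 8 intronic peaks were euchromatic and the density ratio was 78.0. Other alternatives lowered the ratio. It was 11.8 with 1 peak per host (4.93 to 30.4) and 4.76 with annotated elements left in, both among the peaks and in the intron sequence (3.81 to 5.93), both added after the values were seen, and 6.6 with the pericentromere set at 50% masked bases (2.102 to 15.9).

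**Figure D1:**
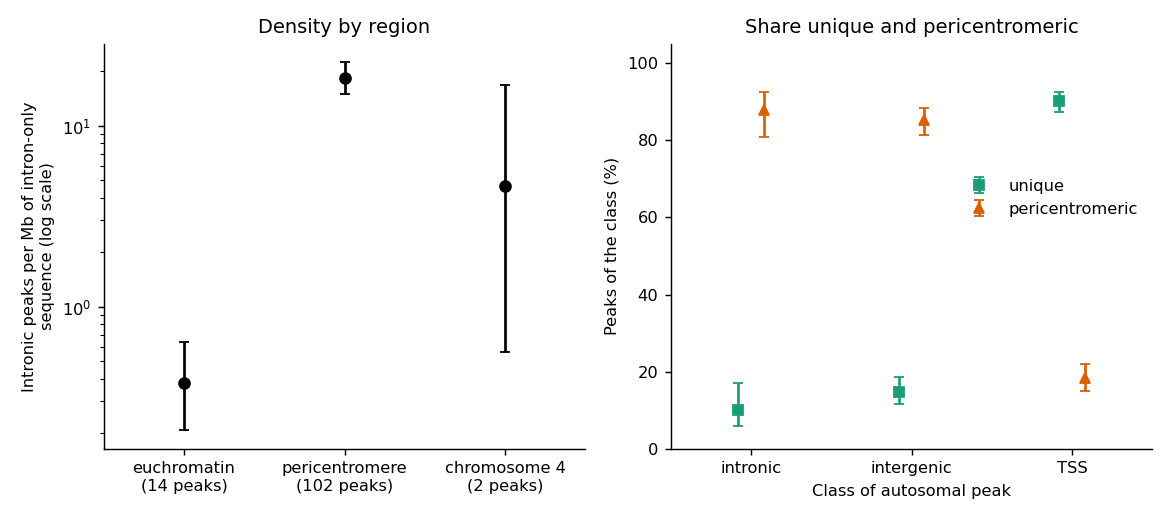
Left, intronic peaks per Mb of intron-only sequence (log scale) in euchromatin, the pericentromere and on chromosome 4, with exact Poisson intervals. Right, the share of intronic, intergenic and TSS peaks of the autosomal arms that were unique (squares) and pericentromeric (triangles), with 95% Wilson intervals; 10.2% of intronic and 14.8% of intergenic peaks were unique, and 90.2% of TSS peaks.

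Intronic peaks were less often unique and more often pericentromeric than peaks at transcript starts (TSS peaks, which cover an annotated start), while the same shares did not pass the test against intergenic peaks. Of the 118 intronic peaks 12 were unique (10.2%, interval 5.91 to 16.9%), against 435 of 482 TSS peaks (90.2%, 87.3 to 92.6%), a difference of -80.1 percentage points (-84.9 to -72.7, two-sided Fisher's exact test, adjusted p = 7.59e-65 over 6 comparisons of shares). Against the 384 intergenic peaks outside annotated elements, of which 57 were unique (14.8%), the difference of -4.67 points did not pass the test (-10.4 to 2.81, Fisher's exact test, adjusted p = 0.335). Outside chromosome 4, 102 of 116 intronic peaks were pericentromeric (87.9%, 80.8 to 92.7%), against 84 of 460 TSS peaks (18.3%, 15 to 22.1%), a difference of 69.7 points (61.6 to 75.4, Fisher's exact test, adjusted p = 6.74e-45). The rule left out midpoints in annotated elements among intronic peaks but not among TSS peaks, so part of this difference comes from the rule. With annotated elements left in, 43.8% of intronic peaks were pericentromeric, a share that was not tested. Against intergenic peaks, of which 325 of 381 were pericentromeric (85.3%), the difference of 2.63 points did not pass (-5.23 to 8.77, Fisher's exact test, adjusted p = 0.544). All these p-values treat peaks as independent, although peaks of 1 host share their gene. With 1 peak per host, the widest, 16 of 25 intronic peaks were pericentromeric (64%), which was 21.3 points below the intergenic share (Fisher's exact test, adjusted p = 0.0146). Only the intronic peaks were thinned, so this sets a share per host against a share per peak and cannot show a difference between the classes. Other values of the intronic and intergenic peaks, given without a test, lay apart: the median share of repeat-masked bases was 31.98% in intronic and 76.8% in intergenic peaks, and 79.7% and 64.8% matched an annotated transposable element.

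Uniqueness also differed by region among the intronic peaks. The regions were defined by repeat content, so a difference in this direction is built into them, and intron windows differed likewise (99.0% and 48.4% unique). The test below therefore cannot show a difference particular to the peaks, and it treats peaks of 1 host as independent. In euchromatin 7 of 14 were unique (50%, 26.8 to 73.2%), and in the pericentromere 4 of 102 (3.92%, 1.54 to 9.65%), a difference of 46.1 points (22.2 to 69.4, two-sided Fisher's exact test, adjusted p = 3.84e-05). The euchromatic share rests on the 6 DIP-lambda peaks, none of them unique: it was 6 of 7 (85.7%) with the pericentromere set at 20% masked bases and 7 of 8 (87.5%) with an unbroken pericentromere. The call was lost with the pericentromere set at 50% masked bases, where 11 of 111 euchromatic and 0 of 5 pericentromeric peaks were unique, and among peaks at or above the median width of the list, where 0 of 4 and 0 of 48 were. On chromosome 4, 1 of 2 was unique. Of all intron windows of 200 bp that meet the same rule, tiled without overlap, 99.0% were unique in euchromatin, 48.4% in the pericentromere and 96.0% on chromosome 4. The central 200 bp of the peaks were unique in 7 of 14, 1 of 102 and 1 of 2. At the other end, in 51 of the 118 peaks (43.2%) no 75 bp word that starts in the peak occurs once. The words of the 106 peaks that were not unique occurred, by their median in each peak, a median of 8 times in the genome, and up to 297 times in a peak of Myo81F. Repeat masking gave only part of this picture: 45 peaks were masked over at least 90% of their bases, 59 over less than 30%, and 49 of those 59 were still not unique.

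**Figure D2:**
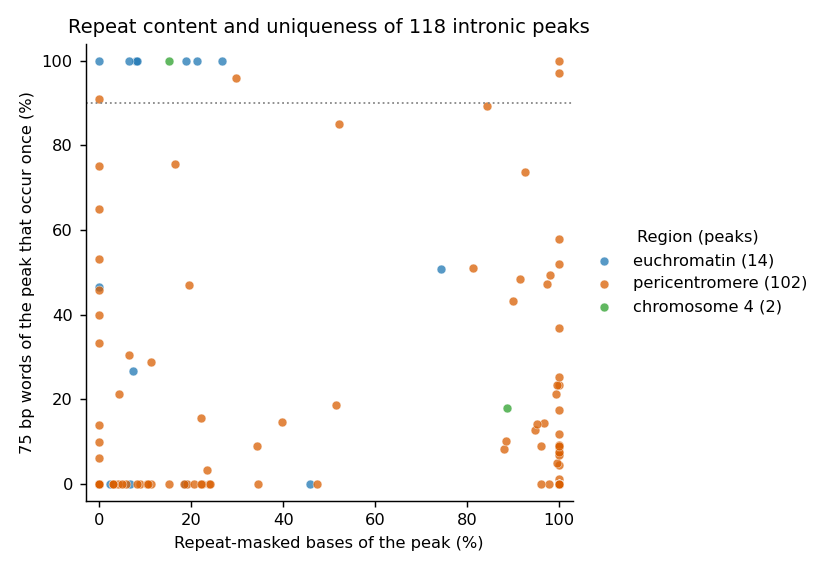
Each point is 1 of the 118 intronic peaks, with the share of its bases that are repeat-masked (x axis, %) and the share of its 75 bp words that occur once in the genome (y axis, %), coloured by region; the dotted line is the 90% limit for a unique peak. Most euchromatic unique peaks lie at the upper left. Most pericentromeric peaks lie low on the y axis, many of them at low or at full masking, while 4 of the 102 lie above the dotted line.

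The unique peaks outside the pericentromere were 8, each the only intronic peak of its host, and in all 8 every 75 bp word occurred once. They were 240 to 348 bp wide (median 309.5 bp), beside a median of 309 bp for TSS peaks. Of the 8, 6 had their centre upstream of the nearest start of the same gene, in an intron of a longer transcript, and in 5 of these that start was within 1500 bp. This limit lies just above the farthest of the 5 (1480 bp), and no share of intron windows was taken at it. The closest was in chb (chr3L:21175422-21175746, 325 bp), which encodes CLASP, a protein of growing microtubule ends: its centre was 197 bp upstream of a start of chb, within the only intron of the longer transcript, of 5051 bp. The peak in tun (chr2R:15847969-15848270), which encodes an amidohydrolase of N-terminal glutamine, was 459 bp upstream of an internal start, in the first of 5 introns, 53559 bp long. The peak in COX7AL2 (chr2L:2193401-2193734), a gene related to cytochrome c oxidase subunits, was 558 bp upstream, in the first of 2 introns (4460 bp). The peak in Asator (chr4:486568-486884), a kinase of the tau-tubulin kinase family, was 693 bp upstream, in the first of 11 introns (7143 bp). The peak in CtsL1 (chr2R:13963573-13963812), the lysosomal protease cathepsin L, was 1480 bp upstream, in the second of 3 introns (4418 bp). None of the 118 peaks covered a transcript start in the RefSeq annotation of the same build either, and the edges of these 5 peaks were 35 bp (chb) to 841 bp (CtsL1) from the nearest RefSeq start of any gene.

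The other 3 unique peaks of these regions lay downstream of the nearest start (2) or farther upstream of it (1). In GstS1 (chr2R:17098502-17098771), a glutathione S-transferase, the peak centre was 864 bp downstream of the nearest start, in the first of 6 introns (1185 bp). In Tet (chr3L:2851805-2852152), the fly relative of the TET dioxygenases that modify methylated bases in mammals, it was 27179 bp downstream, in the fourth of 10 introns (12346 bp). In Eip74EF (chr3L:17596977-17597244), an ETS transcription factor induced by the moulting hormone ecdysone, it was 20485 bp upstream of the nearest start, in the fifth of 7 introns (31734 bp). The peaks in Tet and Eip74EF were 282 and 348 bp from the nearest end of their intron. The next peak of the list was 802 bp (COX7AL2) to 115328 bp (Tet) away, with a median of 45594 bp over the 8. None of the 8 hosts had a peak on any of its annotated starts.

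Short sequence motifs of these 8 peaks are given beside intron sequence at large, in numbers too small for more than a description. AGNTGGCGC, searched on both strands after it had been noticed in these peaks, was in the central 200 bp of 3 of the 8 (37.5%, 13.7 to 69.4%). These were Tet, Eip74EF and Asator, at 67.5, 16.5 and 55 bp from the centre. Because the motif was picked from these same peaks, its share in them cannot set them apart. The motif was in 0.499% of the 160150 intron windows of euchromatin and 0.301% of the 1659 of chromosome 4. It was also in 9 of 435 unique TSS peaks (2.07%, 1.09 to 3.89%) and 8 of 57 unique intergenic peaks (14.0%, 7.29 to 25.3%). Its last 6 letters alone, TGGCGC, were in 4 of the 8 (the same 3 and COX7AL2), beside 6.74% of euchromatic windows, 62 of 435 unique TSS peaks (14.3%, 11.3 to 17.9%) and 13 of 57 unique intergenic peaks (22.8%, 13.8 to 35.2%). A match is a description and not a site. Of the other motifs searched on both strands, GAGAG, the core recognised by GAGA factor, was in 1 of the 8 (CtsL1), beside 21.3% of euchromatic windows and 62 of 435 unique TSS peaks (14.3%). TATCGATA, the core of the element bound by DREF, was in 0 of the 8 (0 to 32.4%), beside 0.276% of euchromatic windows. It was in 72 of 435 unique TSS peaks (16.6%), a share inside the interval of the 8, so this 0 sets nothing apart. CACGTG was in 0 of the 8, CACACACA in 0, AATATAAT in 0 and AAAAAAAA in 1, beside 2.45%, 5.82%, 3.08% and 12.7% of euchromatic windows, so these counts of 0 and 1 of 8 set nothing apart. Among the 102 pericentromeric peaks GAGAG was in 31 (30.4%, 22.3 to 39.9%), beside 22.3% of the 27224 windows there, and AAAAAAAA in 0, beside 9.79% of windows. Exact tandem repeats of period 1 to 6 bp and at least 20 bp were in 0 of the 118 central sequences and in 1.87% of all windows; the repeat of the Mitf peak has a longer unit.

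On chromosome 4 the second intronic peak lay in Mitf, a basic helix-loop-helix factor that controls lysosomal genes (chr4:1199630-1200738). It was 1109 bp wide, with 3.97% G and C, 88.5% masked bases and 17.8% of its words occurring once, and its centre was 1326 bp downstream of the nearest start, in the first of 8 introns (20518 bp). In euchromatin the peak outside DIP-lambda that was not unique lay in the lncRNA alphagamma-element:CR32865 (chr3R:12476599-12476990), a non-coding transcript of the heat shock locus. None of its words occurred once, 45.2% of its bases were annotated as element, and the next peak was 64 bp away.

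Most intronic peaks fell into few host genes. The 118 peaks had 27 hosts, 24 of them protein-coding, and each peak overlapped 1 gene. These hosts were 0.326% of the 8281 autosomal genes with intron-only sequence outside annotated elements, and among the 129 such genes centred in the pericentromere 15 were hosts (11.6%). Hosts were long: their median length was 70644 bp, beside 3170 bp for all 8281 genes. Of the 22 pericentromeric genes longer than 50 kb, 12 were hosts. In 16 hosts there was 1 intronic peak, whereas 7 hosts with 5 or more held 91 peaks (77.1%), and Myo81F and Pzl alone held 56 (47.5%). These counts follow the listed positions. Of the 118 peaks 106 were not unique, and the aligner gave a read with several equally good places to 1 of them. Which copy such reads came from was not tested, so the host of these peaks is not settled.

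**Figure D3:**
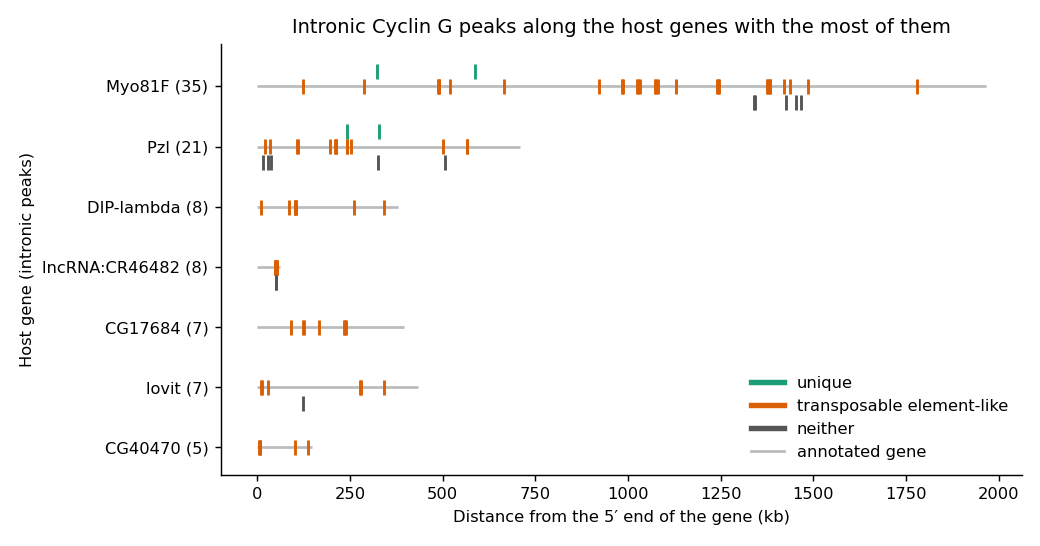
Intronic peaks along the 7 host genes with 5 or more, as ticks at their distance from the 5′ end of the gene (kb) on a grey line as long as the annotated gene. Ticks above the line are unique peaks, ticks on it are other peaks whose sequence matches an annotated transposable element, and ticks below it are the rest; Myo81F, nearly 2 Mb long, holds 35 peaks and Pzl 21.

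Myo81F, which encodes a myosin, is the longest annotated gene of these arms (chr3R:567076-2532932, 1965857 bp), and 12 of its 21 introns held a peak. Its 35 peaks were 101 to 1529 bp wide and lay 122089 to 1780611 bp from the nearest start of the gene. The density in its introns was 19.5 peaks per Mb (13.6 to 27.1), close to the 18.4 of the pericentromere as a whole. Of the 35, 30 matched annotated elements, and 2 were unique, at chr3R:889214-889314 and chr3R:1153683-1153819. Pzl, a relative of the Piezo mechanosensitive channel (chr3R:2554162-3263582, 709421 bp), held 21 peaks in 6 introns, 111 to 1756 bp wide and 15486 to 565777 bp from a start, at 33.3 per Mb (20.6 to 50.9). Inside Pzl the same sequence recurred: the peaks at chr3R:3228189-3228475 and chr3R:3247944-3248248 shared 287 bp without a difference, the 113 bp peak printed above was contained in both, and a peak at chr3R:2937388-2937498 was 96.4% identical to them over 111 bp.

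The next hosts had 5 to 8 peaks each. DIP-lambda, an immunoglobulin-superfamily receptor of the Dpr-interacting group (chr2R:326768-705848), held 8 peaks, all of which matched LTR retrotransposons; 4 of them stood within 3837 bp of intron 2 and matched Xanthias. The lncRNA CR46482 (chr3L:27821333-27881412) held 8 peaks within 6216 bp of its only intron, 166 per Mb of its intron sequence (71.7 to 327). Of these, 4 matched Circe and 2 gypsy3 elements. CG17684 held 7 (chr2R:1866080-2262115), and so did lovit, which encodes a histamine transporter of synaptic vesicles in photoreceptors (chr3L:25236940-25670980). In lovit 6 of 7 matched F or Rt1b elements, and its peaks of 1212 and 1150 bp were among the 5 widest. CG40470 held 5. The widest intronic peak of all, 2125 bp, lay in CG41520 and matched an F element at 99.7% identity. Parp1, poly(ADP-ribose) polymerase, held 3 peaks in a single intron of 53935 bp, 109417 to 113291 bp from its start. The distance from an intronic peak to the next peak of the list had a median of 2841 bp (quartiles 552 and 14125 bp) and was at most 1 kb for 37 of the 118 (31.4%).

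Although no midpoint lay in an annotated element, the sequence of most intronic peaks was that of one. Only 3 of the 118 had any base in an annotated element, yet 94 (79.7%, 71.5 to 85.9%) matched an annotated insertion elsewhere over at least 50% of their length at 80% identity or more (blastn). This was so for 88 of 102 pericentromeric peaks (86.3%, 78.3 to 91.6%), 6 of 14 euchromatic peaks, all in DIP-lambda, and neither on chromosome 4. The same search matched 249 of 384 intergenic peaks (64.8%, 59.9 to 69.4%) and 3 of 482 TSS peaks (0.622%). Intron windows of 200 bp matched in 49.4% in the pericentromere and 0.487% in euchromatin, and the central 200 bp of the peaks in 91 of 102 (89.2%, 81.7 to 93.9%) and 6 of 14. The identity was high, with a median of 99.2%, and was at least 95% in 90 of the 94. Annotated elements covered 15.6% of the pericentromere, of which 41.1% was repeat-masked, and 4.18% of euchromatin, of which 16.3% was. The rule kept out 176 of 190 intronic peaks of euchromatin (92.6%) and 46 of 148 of the pericentromere (31.1%).

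The matched families were retrotransposons for the most part. LTR families, whose copies have long terminal repeats, accounted for 50 of the 94 (53.2%, 43.2 to 62.9%), non-LTR families, related to LINE elements, for 39 (41.5%, 32.1 to 51.6%), and the DNA element NOF for 4. F came first, with 14 peaks in 5 hosts at 97.5 to 100% identity, before Doc2 with 7, and Circe, FW, Rt1b, Xanthias and accord with 6 each. Dm88, Stalker and roo had 5 each. INE-1, the most numerous annotated family with 1874 insertions on these arms, matched 0 of the 118, while 1.27% of the pericentromeric intron windows matched it. For the central 200 bp of the 102 pericentromeric peaks the interval of this 0 was 0 to 3.63%, which includes the share of windows. The rule also left out midpoints in annotated insertions, so the count of 0 is no result about INE-1. An annotated insertion can contain a nested element of another family, so a family name is that of the best-matching insertion. Peaks that were alike could bear names of different classes. In Myo81F a peak named roo (LTR, chr3R:1647529) was 99.35% identical over 462 bp to one named FW (non-LTR, chr3R:2347381). The counts by class and by family therefore depend on which insertion matched best. Of the 24 peaks without a match, 14 were pericentromeric, and 13 of those were not unique.

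**Figure D4:**
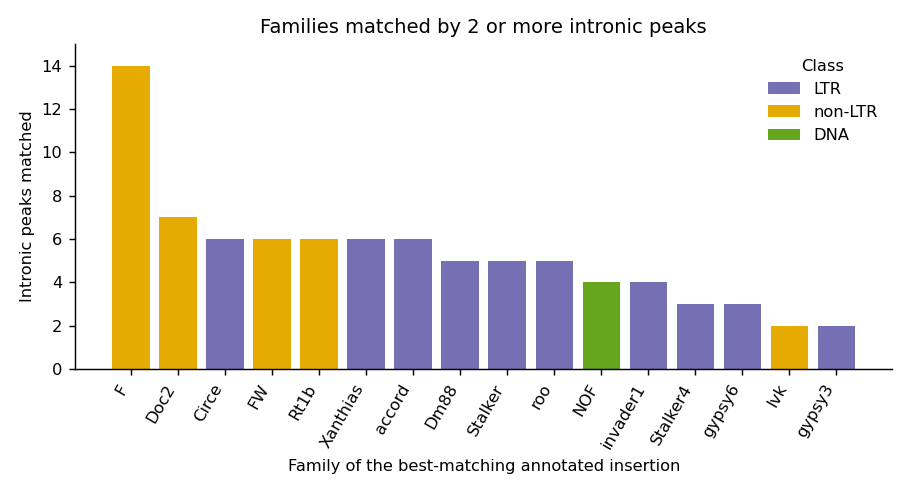
Number of intronic peaks (y axis) whose best match among annotated insertions is of the family named on the x axis, for families matched by 2 or more peaks, coloured by class. F leads with 14 peaks, and LTR families fill most of the remaining bars.

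Intronic peaks also resembled each other. Of the 118, 60 (50.8%) shared at least 50% of their length at 90% identity or more with another intronic peak, and 47 did so with a peak in another host. In all, 72 pairs were alike, of which 24 were within the same gene.

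Over the 118 peaks the introns were long and most peaks were far from starts, but most euchromatic peaks outside DIP-lambda were not. The median length of the intron, the shortest annotated one that holds the peak, was 76572 bp over the 118 (quartiles 32158 and 121036 bp). In the pericentromere it was 90176 bp for peaks and 65358 bp for intron windows. In euchromatin it was 42646 bp, where the DIP-lambda introns of 83719 and 62882 bp weigh in, beside 11286 bp for windows. Outside DIP-lambda the introns of the euchromatic peaks were 1185 to 53559 bp long. Of the 118 peaks 25 (21.2%, 14.8 to 29.4%) lay in a first intron: 5 of 14 in euchromatin, beside 45.7% of windows, and 18 of 102 in the pericentromere (interval 11.5 to 26.2%), beside 12.0% of windows. The distance from the peak centre to the nearest start of the host had a median of 131140 bp (103040 to 241638). In the pericentromere the median was 222508 bp for peaks and 166080 bp for windows, and 0 of 102 peaks were within 1 kb of a start, beside 1.12% of windows. In euchromatin the median was 23832 bp for peaks and 7491 bp for windows, although 4 of 14 peaks were within 1 kb (28.6%, 11.7 to 54.6%), beside 10.1% of windows. This median rests on the 6 DIP-lambda peaks, which lay 84691 to 260640 bp from a start. The euchromatic peaks outside DIP-lambda lay 197 to 27179 bp from a start, and 5 of the 7 unique ones were within 1500 bp. No share of windows was taken at 1500 bp, so that count has no background. On chromosome 4 the 2 peaks lay 693 and 1326 bp from a start, beside a median of 4610 bp for windows, in introns of 7143 and 20518 bp, beside 2489 bp. Without Myo81F and Pzl, an alternative added after the values were seen, the median distance was 52380 bp and 38.7% of the peaks were in a first intron.

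**Figure D5:**
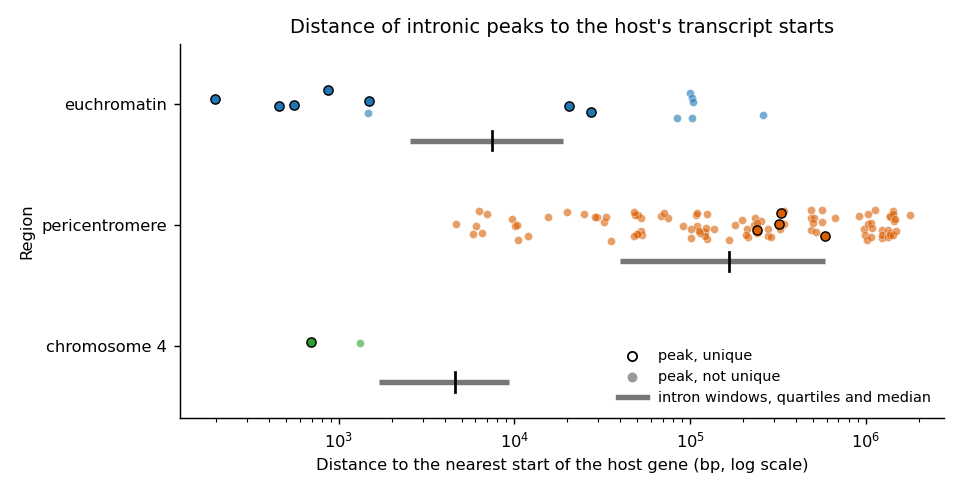
Distance from each intronic peak's centre to the nearest annotated start of its host gene (bp, log scale), by region; black outlines mark unique peaks, and the grey bars give the quartiles and the median of all 200 bp intron windows of the region. In euchromatin 5 of the 7 unique peaks lie within 1500 bp of a start, a limit at which no share of windows was taken, and the pericentromeric peaks range from 4651 to 1780611 bp.

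Hosts were also asked for a Cyclin G peak on their own starts. A start was inside a peak in 0 of 9 euchromatic hosts (interval 0 to 29.9%) and in 3 of 16 pericentromeric hosts (18.8%, 6.59 to 43.0%), which were Dbp80, a DEAD-box RNA helicase, MFS17, a transporter of the major facilitator type, and l(3)80Fg. Of all autosomal genes with intron-only sequence, 396 of 8064 centred in euchromatin (4.91%) and 35 of 129 centred in the pericentromere (27.1%) had a start inside a peak, and both shares lie inside the intervals of the hosts. The difference of -18.8 points did not pass the test (-43.0 to 13.5, two-sided Fisher's exact test, adjusted p = 0.336). When a start within 200 bp of a peak was counted as well, 1 of 9 euchromatic hosts qualified.

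Lists of genes related to Cyclin G or to the wing disc were compared with the hosts. None of 27 Polycomb, trithorax and ETP genes with intron-only sequence, of 44 wing patterning genes or of 21 adhesion and planar polarity genes was a host, beside 0.326% of all such autosomal genes, so that the absence of hosts from lists of this size is no result about them. Of 22 genes known to lie in pericentromeric heterochromatin, 5 were hosts (22.7%), beside 11.6% of all genes centred in the pericentromere: Myo81F, Pzl, Parp1, Dbp80 and Haspin, the histone H3 kinase. These 5 held 61 of the 118 peaks, and the lists were chosen with results of these data known.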

How the data were processed

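The authors filtered reads by quality, aligned them to dm6 with Bowtie2 2.1.0 at default settings, where a read with several equally good places is given to 1 of them, called peaks with MACS2 2.1.0 for each ChIP against its input, kept those reproducible between both replicates by the irreproducible discovery rate and joined overlapping ones. The deposited file holds peak coordinates (other, no score), and the mock libraries, made from 5 ng and read to 50 bp where the others had 38 ng and 75 bp, were not used here.

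Positions count from 1 on dm6. Annotated genes and elements came from Ensembl release 115 (FlyBase 6.54, a later annotation than the study's), and sequence and masking from RefSeq. A rule that takes names beginning with 2, 3 or 4 also covers unplaced scaffolds, and the 1165 peaks on them were left out as not being arms. A peak's intron is the shortest annotated one that holds its midpoint, and hosts are placed by most of their peaks. Words were counted by script and 40 were checked by direct search with 0 disagreeing. Windows of 200 bp tile all intron-only sequence outside annotated elements. Elements of 50 bp or more (4580) were searched with blastn 2.17.0 at an e-value limit of 1e-10. Shares were compared by Fisher's exact test with Benjamini-Hochberg adjustment over 6 comparisons (scipy 1.17.1, statsmodels 0.14.6), differences have Newcombe intervals, and all intervals are at 95% and cover counting error only. The classification was tested on simulated data: of 2000 placed intervals, 0 disagreed with bedtools 2.31.1.

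The members and gene lists were chosen with earlier results of these data known. Genes were named when they host a unique euchromatic peak, are among the 5 hosts with most peaks of a region, host 1 of the 5 widest peaks, lie on chromosome 4, or are hosts in a list. CG40470, MFS17, l(3)80Fg and CR32865 were named after their values were seen. Alternatives concerned the element filter, biotypes, width, the limits for pericentromere and uniqueness, 1 peak per host, the start overlap and the transcript used. The sequences printed were picked after their values were seen.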

Additional observations from a re-analysis of the deposited data

How the results depend on the processing

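No paired analysis was possible because the data are 1 joined list without values per sample, and for the same reason no replicate could be left out. Of 96 recomputed values, 74 kept their direction and their side of the threshold or stayed within their interval or within 1.5 times their count. With peaks at or above the median width of 365 bp, 53 intronic peaks were left, none of them unique, so that the euchromatic and pericentromeric shares of unique peaks differed by 0 points (adjusted p = 1, Fisher's exact test), and the pericentromeric share was 2.37 points below that of intergenic peaks (difference -2.37, adjusted p = 0.765). With the pericentromere set at 50% masked bases, 111 intronic peaks counted as euchromatic and 5 as pericentromeric. The density ratio was then 6.6 (11.8 with 1 peak per host and 4.76 with annotated elements left in, both chosen after the data were seen), the difference in unique peaks 9.91 points (Fisher's exact test, adjusted p = 1), and the pericentromeric share lay 22.2 points below the intergenic one (difference -22.2, adjusted p = 5.7e-08), while the share of hosts with a bound start had no value because no host lay mostly in such bins. With 1 peak per host the differences from intergenic peaks were 14.8 points for unique peaks (Fisher's exact test, adjusted p = 0.0652) and -21.3 points for pericentromeric peaks (adjusted p = 0.0146). The intergenic peaks were not thinned, so these set a share per host against a share per peak. Without Myo81F and Pzl, chosen after the data were seen, 62 intronic peaks remained, and the difference from intergenic peaks in the pericentromeric share was -8.63 points (Fisher's exact test, adjusted p = 0.189), the median distance to a start 52380 bp and the share in a first intron 38.7%. The excess of pericentromeric and the deficit of unique peaks against TSS peaks held under every alternative run for these shares, none of which left annotated elements in. They were 3.88 points or more (50% masked bases, Fisher's exact test, adjusted p = 0.0076) and -60.6 points or beyond. The cause of these changes was not tested. The list has no depth, so a peak missing from it cannot be told from one under the caller's limit.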
